A study of Homo sapiens with 2 samples.

Results

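To assess where MYBL2 sat on chromatin at genes that the Ewing sarcoma fusion is known to lower, the deposited peak list was read at 7 loci, IGFBP3, LOX, TGFBR2, FOXO1, DKK1, CAV1 and THBS1. These are 7 of the 20098 protein-coding genes in the annotation, listed as well-known genes lowered by EWSR1-FLI1. That rule uses no value of the peak list, but the genes were chosen with earlier results of these data known. A peak was counted for a gene when it overlapped 1000 bp either side of any annotated transcription start site (TSS), the gene body, or the 100 kb beyond either end of the gene body (flanks, counted without peaks that touch the body). The 7 loci held 51 of the 66954 peaks in the list, 23 touching the gene bodies and 28 in the flanks.

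The series holds 2 libraries from A673, an established Ewing sarcoma cell line, labelled WT and with no treatment named. One is chromatin immunoprecipitated with an antibody to MYBL2, and the other is input DNA without immunoprecipitation. The labels call the antibody anti-MYBL2, whereas the study's methods describe it as one against the phosphorylated, activated protein. With 1 library per group no test between samples was possible. Intervals of fold enrichment and of fragments are exact Poisson 95% intervals and cover counting error only. Intervals of shares are exact binomial 95% intervals, which treat the genes of a list as independent draws, although these genes were picked. Whether these genes were low in the cells was not checked, since the study's expression data were not used here.

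EWSR1-FLI1, the fusion protein of Ewing sarcoma, is a transcription factor that activates genes from long runs of the 4-base unit GGAA and also lowers a large set of genes, among them regulators of growth factor, TGF-β and Wnt signalling. MYBL2 (B-MYB) is a MYB family factor that acts with the MuvB complex on genes of the G2 and M phases, many of which carry a CHR element, TTTGAA, near their start. The 7 genes are listed as lowered by the fusion, but CAV1 has also been described as a gene that the fusion raises, so counts that CAV1 decides are also given without it.

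The 7 loci separated into genes with a peak at the promoter (CAV1, FOXO1, TGFBR2 and LOX) and genes with none at the promoter or in the body (IGFBP3, DKK1 and THBS1). The sequences that follow are those on which the description rests, printed 5′ to 3′ from the GRCh37 assembly, whose coordinates are those of hg19. The runs of GGAA units that lay inside peaks at CAV1 and TGFBR2 are shown first, with runs of at least 2 units in capitals (GGAA, or TTCC for the other strand).
CAV1 upstream repeats, chr7:116163101-116163310, plus strand: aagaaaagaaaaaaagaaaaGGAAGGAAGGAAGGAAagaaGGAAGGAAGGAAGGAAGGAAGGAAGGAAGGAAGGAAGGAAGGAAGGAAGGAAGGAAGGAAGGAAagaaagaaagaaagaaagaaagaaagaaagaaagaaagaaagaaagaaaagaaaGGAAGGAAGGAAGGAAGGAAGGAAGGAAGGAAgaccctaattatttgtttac
TGFBR2 downstream repeat, chr3:30775062-30775149, plus strand: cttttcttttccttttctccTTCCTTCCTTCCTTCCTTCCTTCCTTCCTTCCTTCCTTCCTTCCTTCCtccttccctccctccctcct

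The 100 bases immediately upstream of the outermost TSS follow, first for the 4 genes with a promoter peak and then for the 3 without. Capitals mark the motifs searched on both strands, the MYB core AACNG (CNGTT on the other strand), the CHR element TTTGAA, the CCAAT box, the ETS core CCGGAAGT, the AP-1 site TGANTCA and the TEAD site ACATTCC.
CAV1, chr7:116164948-116165047, plus strand: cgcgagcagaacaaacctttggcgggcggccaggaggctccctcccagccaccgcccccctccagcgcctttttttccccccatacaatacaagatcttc
FOXO1, chr13:41240779-41240878, minus strand: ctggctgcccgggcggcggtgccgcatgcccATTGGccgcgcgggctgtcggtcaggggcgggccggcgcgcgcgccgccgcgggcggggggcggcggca
TGFBR2, chr3:30647993-30648092, plus strand: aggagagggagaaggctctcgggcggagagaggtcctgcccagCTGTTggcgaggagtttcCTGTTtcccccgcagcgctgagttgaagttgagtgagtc
LOX, chr5:121414109-121414208, minus strand: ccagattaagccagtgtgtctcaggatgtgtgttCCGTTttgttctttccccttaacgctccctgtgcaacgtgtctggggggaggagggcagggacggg
IGFBP3, chr7:45961474-45961573, minus strand: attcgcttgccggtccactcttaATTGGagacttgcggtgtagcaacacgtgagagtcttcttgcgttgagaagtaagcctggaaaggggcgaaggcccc
DKK1, chr10:54073941-54074040, plus strand: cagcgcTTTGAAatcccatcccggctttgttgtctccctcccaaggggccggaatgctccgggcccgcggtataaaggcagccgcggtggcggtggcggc
THBS1, chr15:39873180-39873279, plus strand: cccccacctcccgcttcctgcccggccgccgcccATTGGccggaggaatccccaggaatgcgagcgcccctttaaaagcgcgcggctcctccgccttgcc

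Windows of 101 bases centred on peak summits are given for the strongest peak of CAV1, the strongest peak in the body of TGFBR2, and the peak nearest to IGFBP3 and to DKK1, with the same motifs in capitals.
CAV1 promoter summit, chr7:116165241-116165341, plus strand: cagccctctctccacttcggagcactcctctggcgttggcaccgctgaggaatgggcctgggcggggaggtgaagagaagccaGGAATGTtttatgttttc
TGFBR2 intron 3 summit, chr3:30696843-30696943, plus strand: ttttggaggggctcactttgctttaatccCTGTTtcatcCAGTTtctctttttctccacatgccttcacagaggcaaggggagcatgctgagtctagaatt
IGFBP3 upstream summit, chr7:46017704-46017804, minus strand: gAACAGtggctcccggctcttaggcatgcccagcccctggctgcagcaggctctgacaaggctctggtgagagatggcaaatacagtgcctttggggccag
DKK1 downstream summit, chr10:54094524-54094624, plus strand: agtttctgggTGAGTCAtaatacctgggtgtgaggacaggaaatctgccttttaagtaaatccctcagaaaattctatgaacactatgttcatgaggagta

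The upstream sequences did not separate the 2 sets of genes by motif. These windows were set by the outermost TSS, which at IGFBP3, LOX and CAV1 is not the annotation's canonical TSS. MYB cores stood upstream of LOX (1) and TGFBR2 (2), a CCAAT box upstream of FOXO1, IGFBP3 and THBS1, and none of the 6 motifs upstream of CAV1, which had the strongest peak. DKK1, with no promoter peak, was the only one of the 7 with a CHR element in this window. Among the 100 upstream bases of all 20098 protein-coding genes, 36.2% held a MYB core, 19.6% a CCAAT box, 3.87% a CHR element, 2.78% the ETS core, 2.13% an AP-1 site and 0.881% a TEAD site. The number of CpG dinucleotides in this window ran from 4 in LOX to 20 in FOXO1, against a median of 7 over all protein-coding genes.

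At the promoter, 4 of the 7 genes (57.1%, interval 18.4 to 90.1) had a peak, a share near the 59.4% of all protein-coding genes. Without CAV1, 3 of the other 6 had one. The same 4 genes had a peak in the gene body, against 64.2% of protein-coding genes. At LOX this was the promoter peak itself, whose summit lay outside the gene, so 3 of 7 had a body peak when the summit had to lie in the body. In the flanks, 5 of 7 had a peak against 84.7%, and counting promoter, body and flanks together 6 of 7 had one against 88.8%. THBS1 was the gene with no peak in any of these regions, as were 2250 protein-coding genes (11.2%). The counts for these genes were thus close to the background, and the loci differed from each other more in strength and extent.

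Promoters rich in CpG carried peaks more often over the genome, 78.9% of those with an observed to expected CpG ratio of at least 0.6 and 21.7% of the others. The ratio was taken in the 1 kb around the canonical TSS, not the outermost one. By this measure 6 of the 7 genes were CpG-rich, with ratios from 0.674 (DKK1) to 0.960 (FOXO1), and 3 of these 6 had a promoter peak. IGFBP3 (0.943), THBS1 (0.763) and DKK1 were CpG-rich and had no promoter peak. CAV1, at 0.5996, fell just under the limit and had the strongest promoter peak of the 7.

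**Figure D1:**
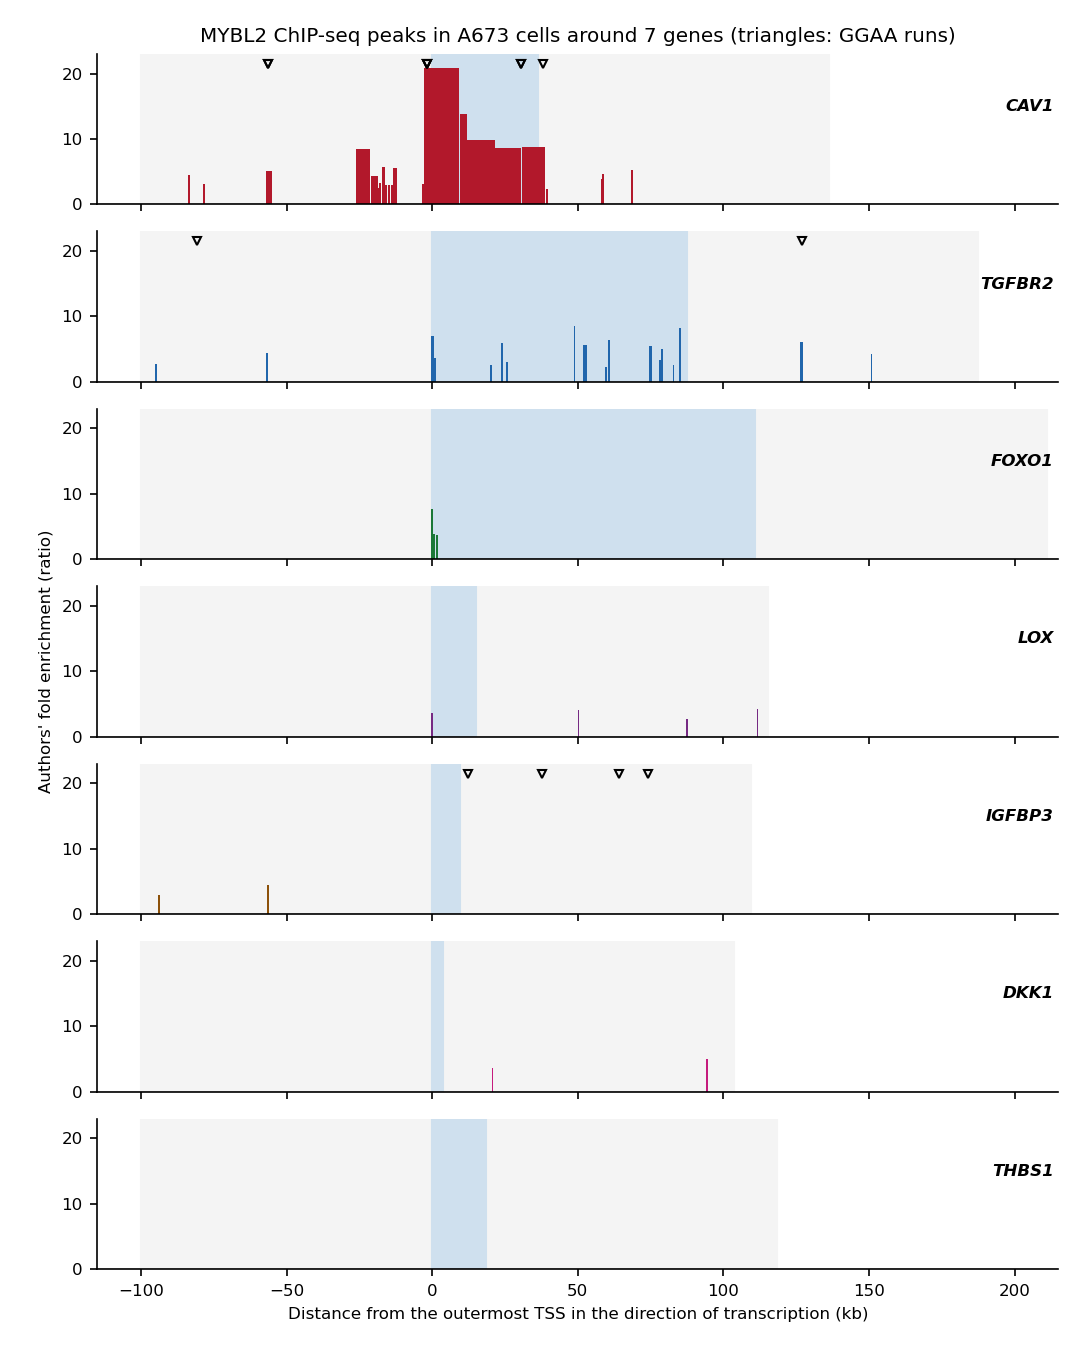
Peaks around the 7 genes, each drawn from its start to its end at its height in fold enrichment (vertical axis, linear, a ratio of ChIP over background), against distance in kb from the outermost TSS in the direction of transcription. Blue shading is the gene body, grey the 100 kb flanks, and triangles mark runs of at least 4 GGAA units. Near-continuous peaks up to 20.8 cover CAV1, scattered peaks up to 8.47 lie across TGFBR2, 3 peaks stand at the FOXO1 start, 1 at the LOX start, and none within the flanks of THBS1.

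CAV1 encodes caveolin-1, the main coat protein of caveolae in the plasma membrane. The gene (ENSG00000105974, chr7:116165048-116201233, plus strand, 36.2 kb) carried the strongest peak of the 7 loci. This peak reached from 116162332 to 116174383, 12052 bp, with a fold enrichment of 20.8 (interval 17.2 to 25.04) and 112 overlapping fragments at its summit (interval 92.2 to 134.8). The summit lay in intron 1, 243 bp inside the outermost TSS. Of the protein-coding genes with a promoter peak, 94.4% had a weaker one. The interval did not overlap that of any other peak at the 7 loci outside CAV1.

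Peaks ran through the whole CAV1 gene. After the promoter peak came 4 further body peaks with fold enrichments of 13.8, 9.83, 8.64 and 8.77 and widths of 2164, 9495, 8759 and 8102 bp, separated from each other and from the promoter peak by 959 bp in all. Together the 5 peaks covered 97.3% of the gene body. Of the 59 peaks of at least 8 kb in the whole list, 4 were these. Coverage was lower in 99.43% of protein-coding genes. In 2.96% of protein-coding genes peaks covered more than 50% of the body.

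The flanks of CAV1 held 17 of the 28 flank peaks of the 7 loci, with fold enrichments from 2.36 to 8.53, so the count without CAV1 was 11. The strongest, 4777 bp wide at 116139046 to 116143822, lay at a start site of CAV2, the neighbouring caveolin gene, 25.6 kb upstream of the outermost CAV1 TSS. From this peak to the end of the last CAV1 body peak, 15 peaks covered 82.1% of 64.8 kb. Of 8 runs of at least 4 GGAA units at the CAV1 locus, 6 were inside peaks. The longest, 16 units at 116163141 to 116163204, stood 1.88 kb upstream of the outermost TSS with neighbours of 4 and 8 units, all inside the promoter peak, and is the first sequence shown. A run of 12 units just beyond the 3′ end of the gene, at 116202996 to 116203043, was inside the last body peak. Runs of 6 and 4 units within the body fell in the short gap between 2 wide peaks. The list gives 1 summit per peak, so the signal at these repeats within a 12052 bp peak was not resolved, and repeat lengths are those of the reference and not of the A673 genome.

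**Figure D2:**
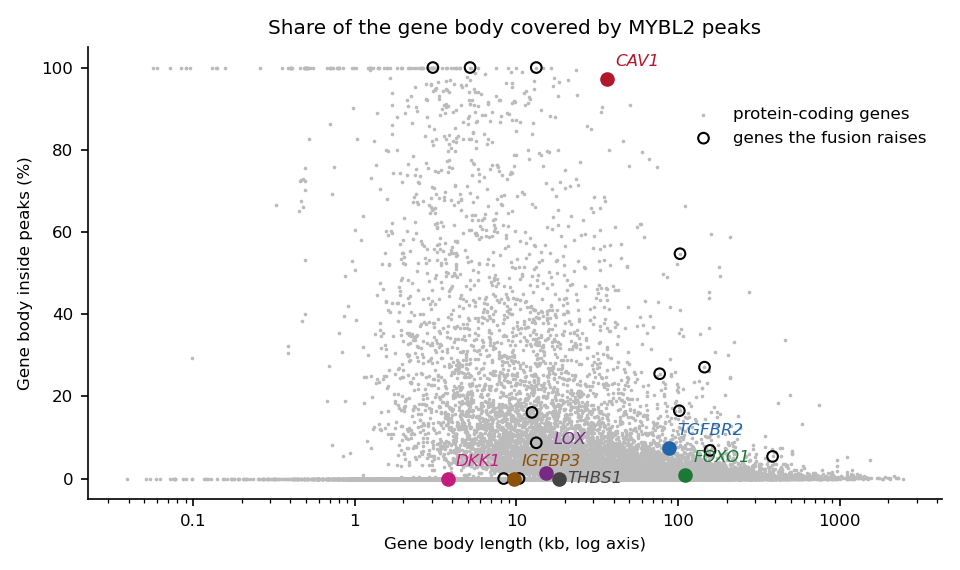
Share of the gene body inside peaks (vertical axis, %) against gene body length (kb, log axis) for 20098 protein-coding genes (grey dots), the 7 genes (coloured) and 13 genes raised by the fusion (open circles). CAV1 stands at 97.3% and the other 6 between 0 and 7.50%. Open circles at 100% are CCND1, NR0B1 and NKX2-2.

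TGFBR2 encodes the type II TGF-β receptor, the kinase that binds the ligand and activates the type I receptor. The gene (ENSG00000163513, chr3:30648093-30735634, plus strand, 87.5 kb) had the most body peaks, 14, or 16.0 per 100 kb against 4.39 per 100 kb over all protein-coding genes. The fold enrichments of these 14 ran from 2.26 to 8.47, and 8 of them reached at least 5. Fewer than 14 body peaks were found in 96.1% of protein-coding genes of all lengths. Among genes of 50 to 150 kb, the class of TGFBR2, the median was 2 body peaks and the highest count 106. The body peaks had a median width of 330.5 bp, against 319 bp over the whole list, and covered 7.50% of the body. The strongest promoter peak, 30647794 to 30648746, showed a fold enrichment of 6.94 (interval 5.004 to 9.384). This summit fell in exon 1, within the 5′ UTR and 168 bp from the outermost TSS, and 33.7% of bound protein-coding genes had a weaker one. A second promoter peak 1.03 kb downstream reached 3.59. At internal start sites, peaks of 5.98 in intron 1 and 5.41 in intron 5 also counted as promoter peaks.

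The highest values of TGFBR2 were away from its starts. A peak in intron 3, 30696771 to 30697221, reached 8.47 with 47 fragments (interval 34.5 to 62.5), and one in the 3′ UTR of exon 7 reached 8.27, also with 47 fragments. Their intervals overlapped that of the promoter peak, so no order among the 3 was resolved at this depth. The intron 3 summit shown above held 2 MYB cores within 101 bases. In the flanks there were 4 peaks, the strongest of 6.08 in GADL1, the downstream neighbour. That flank peak contained 12 GGAA units in a row (30775082 to 30775129), the second sequence shown. The other run at this locus, 4 units 80.6 kb upstream, was 14.1 kb from the nearest peak.

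FOXO1 encodes a forkhead transcription factor that AKT signalling keeps out of the nucleus. The gene (ENSG00000150907, chr13:41129804-41240778, minus strand) is the longest of the 7, 111 kb, and had 3 peaks, all within the first 2 kb. The strongest, 41240361 to 41241020, had a fold enrichment of 7.64 (interval 5.328 to 10.64) with 33 fragments and a summit 28 bp upstream of the TSS, beside the CCAAT box shown. Another, in coding exon 1, reached 3.82, and the third, in intron 1, reached 3.71. The rest of the body had no peak, peaks covered 0.974% of it, and the 100 kb flanks were empty. The nearest peak beyond them was 104.3 kb upstream at the promoter of MRPS31, a mitochondrial ribosome gene, with a fold enrichment of 10.1. Fold enrichment of the best promoter peak did not differ from that of TGFBR2 beyond the counting intervals.

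**Figure D3:**
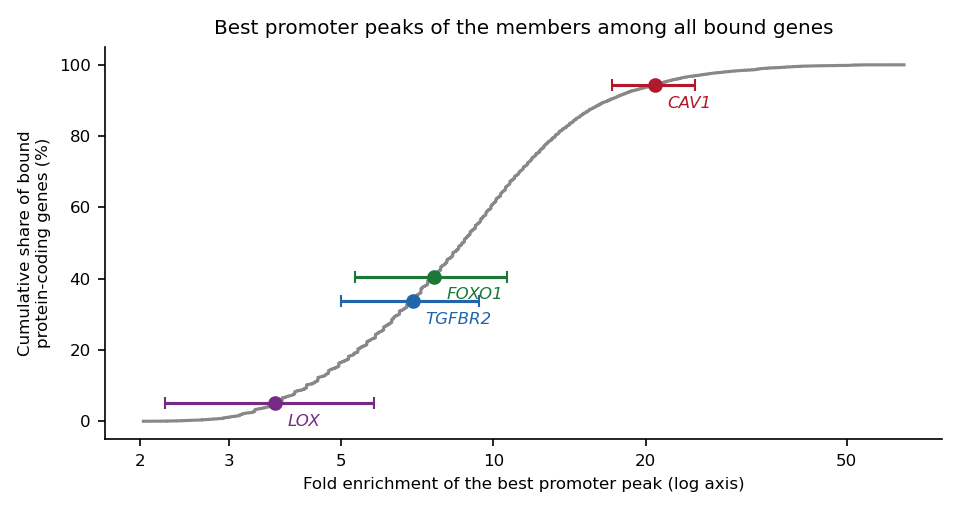
Cumulative share (vertical axis, %) of protein-coding genes with a promoter peak against the fold enrichment of their best one (log axis, grey line), with the 4 bound genes as points and exact Poisson 95% intervals as bars. CAV1 lies above 94.4% of bound genes, FOXO1 above 40.6%, TGFBR2 above 33.7% and LOX above 5.07%.

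LOX encodes lysyl oxidase, a secreted enzyme that cross-links collagen and elastin. The gene (ENSG00000113083, chr5:121398890-121414108, minus strand, 15.2 kb) had 1 peak, 121413910 to 121414216, with its summit 24 bp upstream of the outermost TSS. Its fold enrichment was 3.70 (interval 2.239 to 5.794) with 17 fragments (interval 9.9 to 27.2), and 5.07% of bound protein-coding genes had a weaker promoter peak. The −log10 q was 4.45, so this peak was lost when a −log10 q or a fold enrichment of at least 5 was required, which left 3 genes with promoter peaks. The 3 flank peaks of LOX, from 2.75 to 4.23, all lay downstream within SRFBP1. The weak promoter peak had a MYB core, in CCGTT form, within its 101-base summit window, and it is the one marked in the upstream sequence.

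IGFBP3, DKK1 and THBS1 encode secreted proteins. IGFBP3 carries insulin-like growth factors in the circulation and limits their access to the receptor, DKK1 blocks Wnt signalling by binding the co-receptors LRP5 and LRP6, and THBS1 (thrombospondin 1) is a matrix glycoprotein that restrains vessel growth. No peak overlapped the promoter or body of any of them. Of protein-coding genes under 10 kb, the class of IGFBP3 (9.63 kb) and DKK1 (3.76 kb), 43.5% had a body peak, and of those from 10 to 20 kb, the class of THBS1 (18.4 kb) and LOX, 61.1% had one. In the longer classes the share was 70.4% from 20 to 50 kb, which holds CAV1, and 76.4% from 50 to 150 kb, which holds TGFBR2 and FOXO1.

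IGFBP3 (ENSG00000146674, chr7:45951844-45961473, minus strand) had 2 flank peaks, both upstream. The nearer, 56.3 kb from the TSS, had a fold enrichment of 4.49 (interval 2.795 to 6.89), and the other, 93.7 kb away, 2.92. Downstream the next peak was 589.9 kb beyond the gene, so that IGFBP3 lay in a peak-free interval of 655.8 kb with IGFBP1, ADCY1 and CCDC201. Over the genome 99.03% of intervals between neighbouring peaks were shorter, and the median was 2.29 kb. This interval held 4 runs of 4 or 5 GGAA units within 100 kb of IGFBP3, the nearest 12.4 kb from the TSS, none in a peak. IGFBP3, DKK1 and THBS1 were grouped for having no promoter or body peak, so each had to lie in an interval longer than the gene. The shares of shorter intervals given for them are over all intervals between peaks. Intervals that hold other genes without peaks were not taken separately, so these shares do not show that the intervals are unusual for such genes.

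DKK1 (ENSG00000107984, chr10:54074041-54077802, plus strand) had 2 peaks downstream. The nearer, 20.5 kb from the TSS, reached 3.55 (interval 2.413 to 5.04) and held the AP-1 site shown, and the other, 94.5 kb away, reached 4.94. The peak-free interval around its start was 251.1 kb, longer than 96.64% of intervals. The CHR element upstream of DKK1 was therefore in a stretch without a called peak.

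THBS1 (ENSG00000137801, chr15:39873280-39891667, plus strand) lay in the longest peak-free interval of the 3, 1113 kb, longer than 99.52% of intervals and with no other complete protein-coding gene inside. The nearest peaks were 911.6 kb upstream, with a fold enrichment of 5.92, and 183.1 kb downstream, at the promoter of FSIP1, with 20.9 (interval 16.89 to 25.57). The strength of this downstream peak was close to that of the CAV1 promoter peak. The list holds called peaks only, the weakest with 11 fragments at its summit, so an absent peak means that none was called at this depth. Input coverage at the unlisted places was not analysed here.

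**Figure D4:**
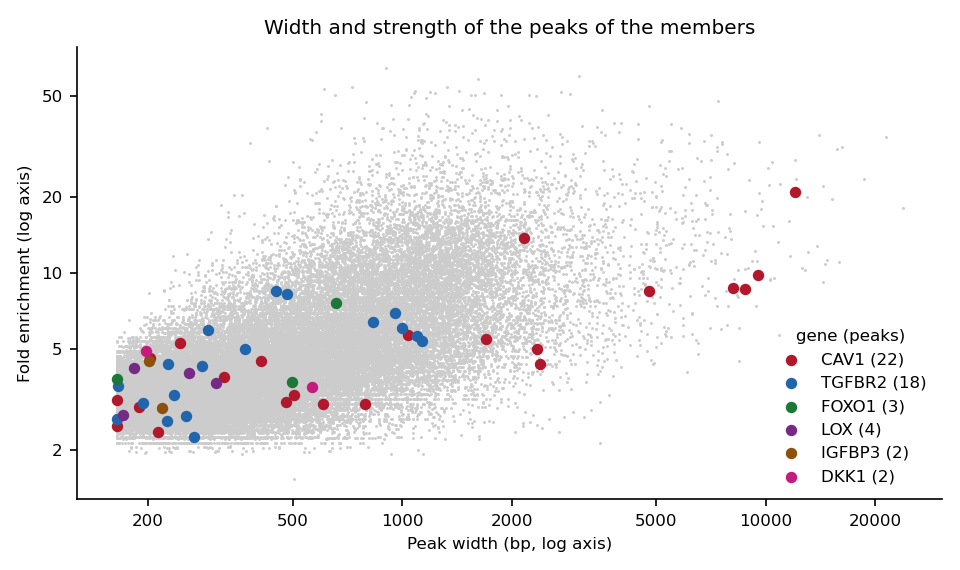
Fold enrichment (vertical axis, log) against peak width in bp (log axis) for all 66954 peaks (grey) and the 51 peaks of the 7 loci (coloured, count per gene in the key). The 5 CAV1 body peaks lie at the wide edge, between 2164 and 12052 bp, while all peaks of TGFBR2, FOXO1, LOX, IGFBP3 and DKK1 are at most 1135 bp wide.

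At the peak summits, a MYB core was found within the 101-base window of 23 of the 51 peaks (45.1%), near the 44.1% of all 66954 peaks. It was present at 10 of 22 CAV1 peaks, 8 of 18 TGFBR2 peaks, 3 of 4 LOX peaks and both IGFBP3 peaks, and at none of the 3 FOXO1 or 2 DKK1 peaks. A CHR element was found at 2 summits (3.92% against 9.28%), both in the flanks of CAV1, and the ETS core at none (0.705% of all peaks). The CCAAT box stood at 10 (19.6% against 13%), of which 7 were at CAV1, 2 at TGFBR2 and 1 at FOXO1. The AP-1 site was found at 2 (3.92% against 3.36%), 1 at CAV1 and 1 at DKK1, and the TEAD site at 4 (7.84% against 1.58%), of which 3 were at CAV1, the promoter summit among them, and 1 at TGFBR2. Without CAV1, the CCAAT box stood at 3 of 29 summits (10.3%), below the share of all peaks, the TEAD site at 1 (3.45%), the MYB core at 13 (44.8%), the AP-1 site at 1 and the CHR element at none. Neighbouring peaks at 1 locus share their surroundings and are not independent, and these shares are descriptions. Of the 14 runs of at least 4 GGAA units at the 7 loci 7 were inside peaks, 6 of them at CAV1, against 379 of 16275 in the genome (2.33%). CAV1 decided this count. Without it, 1 of 2 runs at TGFBR2 and 0 of 4 at IGFBP3 were inside peaks, and the remaining loci held no run. No run fell within a 101-base summit window.

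To set the 7 genes beside their relatives, 30 genes of the same families and pathways were read in the same way. A promoter peak was present at 21 (70.0%, interval 50.6 to 85.3), against 59.4% of all protein-coding genes. At the outermost TSS alone 16 had one (53.3% against 53.2%), and at a fold enrichment of at least 5, 15 (50% against 49.6%). With all peaks and starts, the bound relatives had a median best fold enrichment of 6.51, against 7.29 for the 4 bound genes and 8.67 for all bound protein-coding genes. The 7.29 includes CAV1, and without it the bound genes were FOXO1 (7.64), TGFBR2 (6.94) and LOX (3.70). Among the relatives, the highest values were those of IGFBP2 (12.1), an IGF carrier like IGFBP3, LOXL1 (11.7), a lysyl oxidase relative, and IGFBP5 (10.8). No promoter peak was found at IGFBP1, IGFBP4, LOXL2, LOXL4, TGFBR1, DKK4, CAV3, THBS2 or COMP. The FOXO family was not split, as FOXO1, FOXO3 (6.51), FOXO4 (4.02) and FOXO6 (3.34) all had promoter peaks. Other families were split, but with 59.4% of all protein-coding genes bound such splits do not set them apart. The type II receptor TGFBR2 had promoter peaks and its partner TGFBR1 none, and THBS3 (5.15) and THBS4 (8.88) had promoter peaks while THBS1 and THBS2 had none. The DKK1 receptors LRP5 (6.96) and LRP6 (6.28) and the relative DKK2 (7.74) had promoter peaks, and DKK1 none.

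Of 13 genes that the fusion is known to raise, 11 had a promoter peak (84.6%, interval 54.6 to 98.1). Over all protein-coding genes the share was 59.4%. The median best fold enrichment of the 11 bound genes was 12.0, against 8.67 for all bound protein-coding genes. The highest were those of CCND1 (34.5), which encodes cyclin D1, VRK1 (24.3), a kinase, and EZH2 (23.2), the methyltransferase of the Polycomb complex. STEAP1 and CCK had none. At CCND1, NR0B1 and NKX2-2 a single wide peak of 21426, 7556 and 14766 bp covered 100% of the gene body. Over the genome, 104 protein-coding genes had their whole body inside peaks. The 11 bound genes ran from 5.28 (PRKCB, a protein kinase C) to 34.5 in their best promoter peak and from 5.38% (PRKCB) to 100% in body coverage. CAV1 (20.8 and 97.3%) and TGFBR2 (6.94 and 7.50%) lay inside both ranges, FOXO1 (7.64 and 0.974%) inside the first only, and LOX (3.70 and 1.31%) below both. Both ranges were wide. Over all protein-coding genes 49.6% had a promoter peak with a fold enrichment of at least 5, and PRKCB ranked 4481 of 20098 in coverage. A place inside these ranges therefore does not mark a gene as similar to the raised genes. The 3 lists hold few genes, which were picked and not drawn at random, and their binomial intervals overlap. A difference in the share of bound promoters between them was not tested, and none was resolved.

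**Figure D5:**
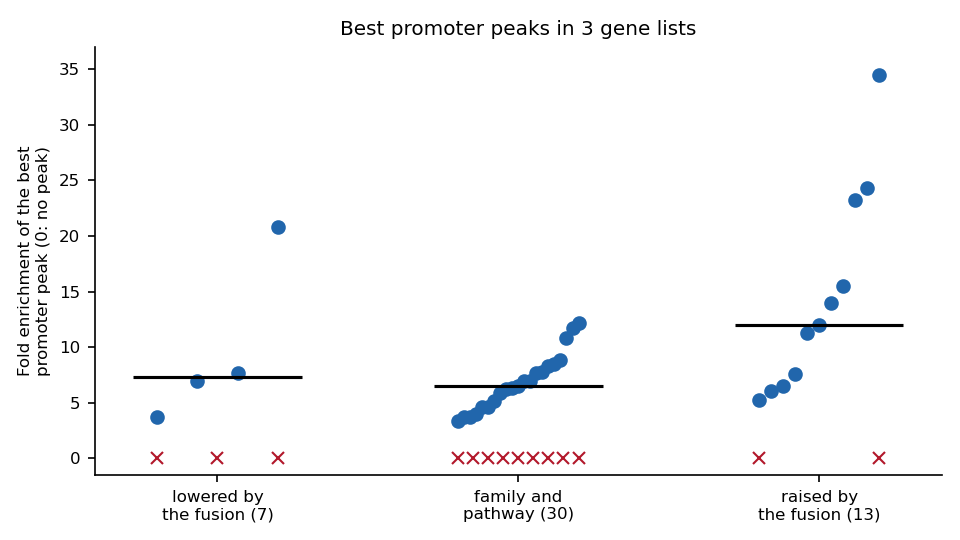
Fold enrichment of the best promoter peak (vertical axis, linear ratio) for each gene of 3 lists, the 7 genes lowered by the fusion, 30 family and pathway genes and 13 genes raised by the fusion. Points are bound genes, crosses at 0 are genes with no promoter peak (3, 9 and 2), and horizontal lines are the medians of the bound genes (7.29, 6.51 and 12.0). CAV1 is the highest point of the first list at 20.8.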

How the data were processed

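MYBL2 ChIP and input DNA of A673 cells were sequenced, 1 library each. Per the study's methods and the submitters' processing notes, the authors aligned reads to hg19 with Bowtie2 (2.1.10) and called narrow peaks with MACS2 (2.0.10) against the input with its human genome size setting. What a later cleaning of the list removed is not given in the sources used here. The deposited columns are a score, fold enrichment (a linear ratio of ChIP over local background), and −log10 p and −log10 q. The offset of the summit is also given.

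Fragments at each summit were recovered from the authors' fold and −log10 p values under the Poisson model of MACS2, and all 66954 fitted a whole number (largest misfit 3.49e-05 in −log10 p). The median was 20 fragments. With the caller's human genome size of 2700000000, and if the narrowest peak is the fragment length, the lowest background of 3.45 corresponds to about 56800000 ChIP reads. Genes and TSSs were taken from GENCODE v44lift37 on chromosomes 1 to 22 and X. Python 3.11.15, numpy 2.4.6, scipy 1.17.1, pandas 2.3.3 and pysam 0.24.0 were used. Scripts were tested on simulated data. Genes named were the 7 genes, and from the other lists those with the highest promoter peaks or none. Relatives of genes without a peak, and those of FOXO1, were added after their values were seen. The members and lists were chosen with earlier results of these data known. Alternatives covered stricter peaks, other windows and merged peaks.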

Additional observations from a re-analysis of the deposited data

How the results depend on the processing

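No paired analysis was possible because the series has a single library in either group. The same 4 genes had a promoter peak with the summit required in the window, with other windows and with the outermost TSS alone, and 3 had one with a −log10 q or fold enrichment of at least 5, or without CAV1 (chosen after seeing the data). The share of all protein-coding genes with a promoter peak was 56.0% at a −log10 q of at least 5, 49.6% at a fold enrichment of at least 5, 58.6% by summit, 58.1% within 500 bp, 61.8% from 5000 bp upstream to 1000 bp downstream, and 53.2% at the outermost TSS. In the same order the share with a body peak was 60.0%, 52.6% and 57.4%, and with a flank peak 80.4%, 73.3% and 85.6%. With each of these 3 limits 3 of the 7 genes had a body peak. Body peaks of the 7 genes fell to 15 at the stricter q and 14 at the stricter fold, and flank peaks to 17 and 6. Flank peaks numbered 11 without CAV1, 17 within 50 kb and 48 within 200 kb. With 100 bp on each side of the summit, MYB cores were at 36 peaks (70.6% against 67.9% of all), CHR elements at 7 (13.7% against 17.6%), CCAAT boxes at 15 (29.4% against 24.4%), TEAD sites at 5 (9.80% against 3.06%) and a GGAA run at 1. Without CAV1, in the main window, MYB cores were at 13, CCAAT boxes at 3, CHR elements at 0, and AP-1 and TEAD sites at 1 each. CAV1 body coverage was 97.3% under both stricter limits, added after seeing the data, which removed the LOX peak and left FOXO1 at 0.377% by fold. Best promoter peaks kept their values in all windows tried. Depth limits the weakest results, such as LOX with 17 fragments.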
